A study of Mus musculus with 45 samples.

Results

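The interleukin-1 (IL-1) family was followed in the mouse distal colon through 10 genes. They were the ligands Il1a, Il1b, Il18 and Il33, the soluble antagonists Il1rn and Il18bp, and the receptors Il1r1, Il1r2, Il18r1 and Il1rl1. These genes were chosen by name from 50600 gene identifiers, and all 10 passed the filter on low counts in every comparison. The libraries were made from polyadenylated RNA. In the first cohort, 10 libraries came from Il10 knockout mice given vehicle, 7 from Il10 knockout mice given compound 13 at 10 mg/kg, 9 from Il10 knockout mice given compound 13 at 30 mg/kg, and 8 from wild-type mice given nothing. In a second cohort, labelled day 77, 5 libraries came from Il10 knockout mice given anti-p40 and 5 from Il10 knockout mice given vehicle. Compound 13 is the code name of an antagonist of GPR4, a receptor that responds to extracellular acidity. One further knockout library, whose title and treatment field give different doses of compound 13, entered no comparison. The p40 protein is the subunit that interleukins 12 and 23 have in common.

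All 5 knockout groups lacked Il10, so the treated groups had no wild-type counterpart. Wild-type mice were given no vehicle, and the effects of genotype and of vehicle cannot be told apart. The labels used here do not give strain, sex, age, dosing schedule or what day 77 is counted from. Nor do they state whether each library is a different mouse, so the p-values measure the spread between libraries, which may be technical.

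IL-1α and IL-1β signal through the receptor encoded by Il1r1, which recruits the adaptor MyD88 and activates NF-kB. Il1rn encodes an antagonist that occupies this receptor without signalling, and Il1r2 encodes a decoy receptor that binds IL-1 but lacks the signalling domain. IL-18, which colonic epithelium makes in the resting state, acts through the receptor of Il18r1 and Il18rap and is neutralised by the binding protein of Il18bp. IL-33, stored in nuclei of stromal and other barrier cells, acts through ST2, the product of Il1rl1.

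The genes lay in a few clusters on GRCm38 (mm10), by GENCODE M21. The 4 receptor members stood on the forward strand of chromosome 1 with Il1rl2 and Il18rap, in a stretch of 477627 bases in the order Il1r2, Il1r1, Il1rl2, Il1rl1, Il18r1 and Il18rap. The end of Il1rl1 and the start of Il18r1 were 136 bases apart. Il1a (chr2:129299610-129309972) and Il1b (chr2:129364570-129371139) were neighbours on the reverse strand, 54597 bases apart, and Il1rn (chr2:24336853-24351494) lay elsewhere on the same chromosome. Il18 was at chr9:50554827-50581840, Il18bp at chr7:102014885-102018690 and Il33 at chr19:29925114-29960718. Several members overlap a gene on the opposite strand, and whether counting used strand is not given in the sources used here. Il18bp overlaps the end of Numa1 (median 5801 counts over the 45 libraries), Il18 overlaps Bco2 (148) and Tex12 (20), Il1a overlaps Gm14023 (7) and Il1b overlaps Il1bos (2), and their reads may not be fully told apart.

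The stretches just upstream of the RefSeq starts of 3 ligand genes and of Il1rn are shown because their transcripts moved in different directions or by different amounts between knockout and wild-type colon, as described below. They are from GRCm38.p6 and read 5′ to 3′ on each gene's own strand. The coordinates are chr2:129309973-129310222 for Il1a (reverse strand), chr2:129371140-129371389 for Il1b (reverse strand), chr2:24336610-24336852 for Il1rn (forward strand, the first of 3 RefSeq starts) and chr9:50554450-50554699 for Il18 (forward strand). Capitals mark matches to any of 4 motifs on either strand: the AP-1 site TGANTCA, the NF-kB core (GGG, then 5 bases of any kind, then CC), the gamma-activated sequence TTCNNNGAA and the interferon-stimulated response element core (GAAA, then 2 bases of any kind, then GAAA). No matches overlapped in these windows.
Il1a: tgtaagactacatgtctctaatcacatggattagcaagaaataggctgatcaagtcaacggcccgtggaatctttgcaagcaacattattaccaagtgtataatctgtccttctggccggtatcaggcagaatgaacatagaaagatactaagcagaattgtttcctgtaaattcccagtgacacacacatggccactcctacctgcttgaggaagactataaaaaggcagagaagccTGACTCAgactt
Il1b: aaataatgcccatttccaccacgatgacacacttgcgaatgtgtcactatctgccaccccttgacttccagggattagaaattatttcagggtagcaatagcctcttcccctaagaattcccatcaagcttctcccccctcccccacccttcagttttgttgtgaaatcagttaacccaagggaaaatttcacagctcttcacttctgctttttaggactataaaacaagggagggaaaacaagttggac
Il1rn: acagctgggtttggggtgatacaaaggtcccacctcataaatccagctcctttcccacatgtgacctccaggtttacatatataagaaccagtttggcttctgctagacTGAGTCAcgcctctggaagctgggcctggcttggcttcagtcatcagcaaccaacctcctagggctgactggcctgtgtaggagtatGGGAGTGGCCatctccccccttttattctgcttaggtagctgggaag
Il18: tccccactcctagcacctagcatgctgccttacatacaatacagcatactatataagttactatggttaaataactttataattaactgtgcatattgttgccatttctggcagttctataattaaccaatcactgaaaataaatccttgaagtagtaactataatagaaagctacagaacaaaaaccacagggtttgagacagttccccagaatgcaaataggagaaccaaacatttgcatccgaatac
The Il1a window held 1 AP-1 match, which began 12 bases before the start, and the Il1rn window held 1 AP-1 match 141 bases before it and 1 NF-kB core match 54 bases before it. The windows of Il1b and Il18 held none of the 4 sets of letters. Of 32851 RefSeq windows of 250 bases, 6.75% held the AP-1 letters, 45.8% the NF-kB core, 7.02% the gamma-activated sequence and 2.98% the interferon-stimulated core.

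Il10, the targeted gene, had 10 counts in all over the 8 wild-type libraries and 0 in each of the 37 knockout libraries. The total count was 22682471 to 36279743 per library. Summed TPM (the authors' abundance corrected for transcript length) of 7 distal colon markers ranged from 2564 to 7152 over the 6 groups. Some libraries stood apart. Summed pancreatic acinar transcripts ranged from 68.55 to 18280 TPM in knockout vehicle and from 312.0 to 13140 TPM in wild type. Among the knockout vehicle libraries, 2 were unlike the rest: library 2 was the highest for 7 of the 10 family members, and library 3 was the lowest for 5. Values without 1 or both of these libraries are given below for Il1a, Il1b and Il33. With each library left out in turn, the log2 fold change of knockout vehicle over wild type kept its size for 3 others. It ranged from 2.32 to 2.88 for Il1r2, from 3.14 to 3.68 for Il1rl1 and from 2.65 to 2.86 for Il18bp.

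**Figure D1:**
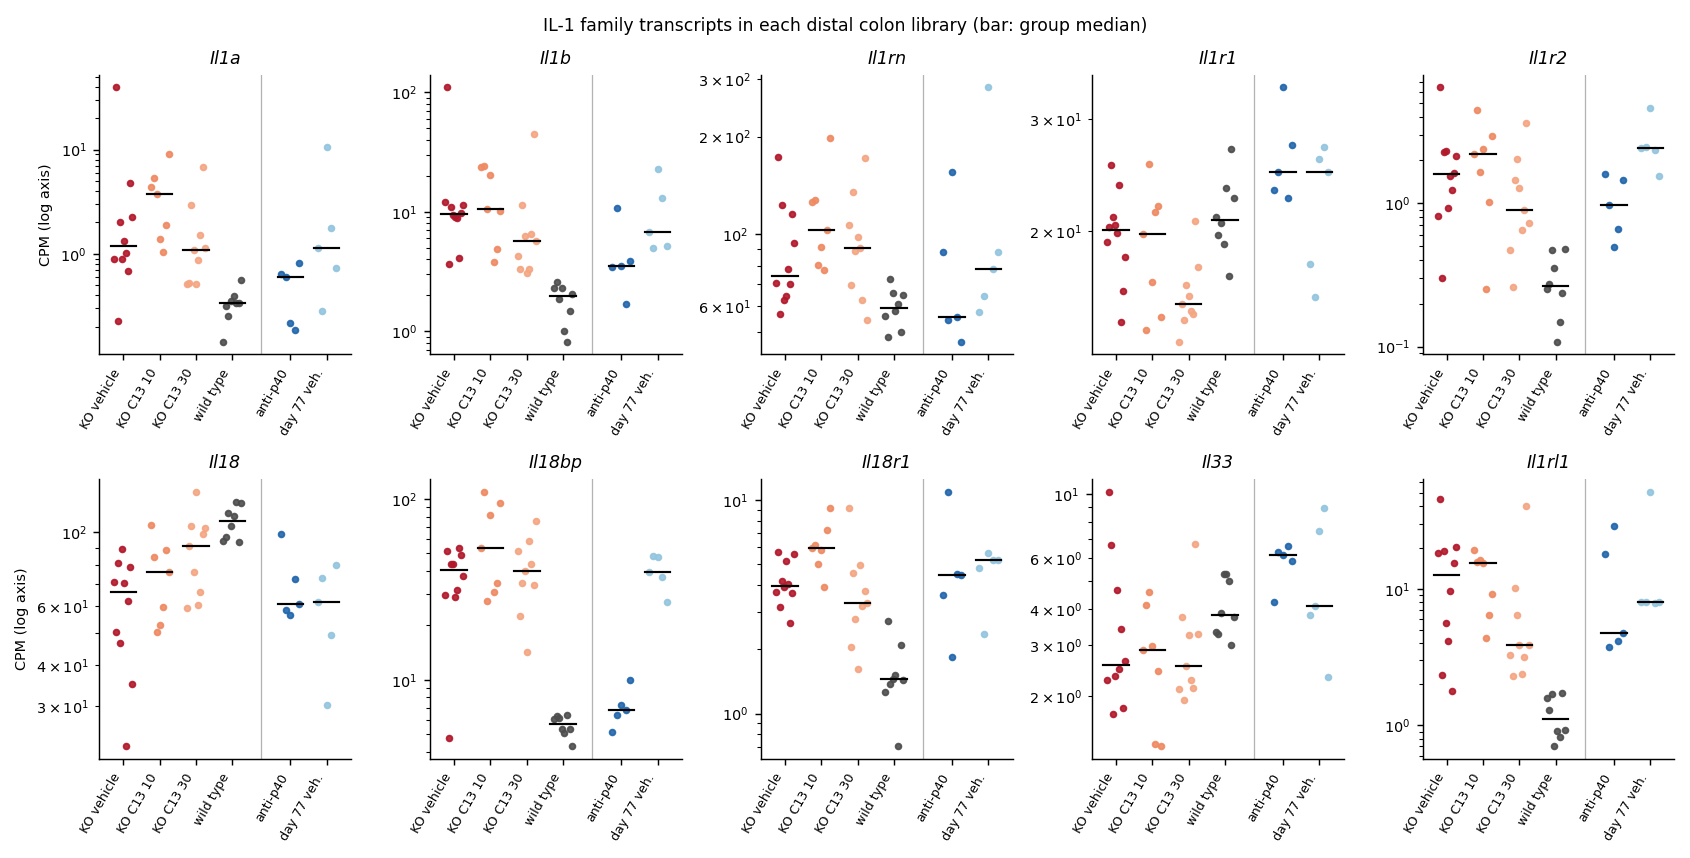
Each panel plots 1 gene in CPM (counts scaled to library size) on a log axis, each point is 1 library and each bar is a group median; KO vehicle, KO C13 10 and KO C13 30 are the knockout groups given vehicle, 10 mg/kg and 30 mg/kg of compound 13, and anti-p40 and its day 77 vehicle are the second cohort. Il1b, Il1rl1 and Il18 separate knockout vehicle from wild type without overlap, and Il18bp separates anti-p40 (5.12 to 9.98 CPM) from day 77 vehicle (26.9 to 48.3 CPM).

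Knockout colon held more transcript of the IL-1 ligands, of the decoys and of the IL-18 and IL-33 receptors than wild-type colon, and less Il18. With edgeR's quasi-likelihood test at an adjusted p under 0.05, 8 of the 10 members passed, 7 higher and 1 lower. Among all 16435 genes tested, 49.4% passed, 25.2% higher and 24.1% lower. Of the members called higher, Il1a and Il1r2 averaged 0.337 and 0.290 CPM in wild type. They passed the filter on low counts mainly through the knockout group and could hardly have been called lower. By limma on log2(TPM + 1), which moved the median of all genes to -0.16, 7 members passed, 6 higher and 1 lower, and 2190 of 8276 calls over all genes were higher, against 4147 of 8113 in edgeR. The median log2 fold change was 2.07 over the 10 members and -0.01 over all genes. In bulk tissue a change in the number of cells of a type and a change in RNA per cell cannot be told apart.

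Il1b, whose product must be cleaved to become active, rose in every knockout library. It ranged from 3.64 to 110.6 CPM with a median of 9.63 in knockout vehicle, and from 0.817 to 2.60 CPM with a median of 1.957 in wild type. The lowest of the 10 knockout libraries exceeded the highest in wild type, a separation that 5.75% of all genes tested showed in either direction. The fold was 10.6 (log2 3.41, SE 0.66, edgeR adjusted p = 0.000538). Library 2 stood at 110.6 CPM and the next at 11.99 CPM, and without library 2 the log2 fold change was 2.28 (edgeR adjusted p = 1.08e-05).

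Il1a, whose product is active as an uncleaved precursor, was far scarcer. It ranged from 0.228 to 39.7 CPM with a median of 1.18 in knockout vehicle, and from 0.144 to 0.559 CPM with a median of 0.336 in wild type. Of the 10 knockout libraries, 9 lay above the whole wild-type range, and library 3 lay within it. The log2 fold change was 4.002 (SE 0.95, edgeR adjusted p = 0.00256), and 2.20 without library 2 (edgeR adjusted p = 0.00118). DESeq2 gave 2.15 (adjusted p = 2.77e-05). By limma voom (2.30, adjusted p = 0.0509) and by limma on log2(TPM + 1) (1.02, adjusted p = 0.0627) Il1a did not pass.

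Il18, the most abundant member per length in both groups, went the other way. It ranged from 22.8 to 89.2 CPM with a median of 66.4 in knockout vehicle, and from 93.6 to 123.0 CPM with a median of 108.2 in wild type, so the groups did not overlap. Il18 was 1.77-fold lower in the knockout (log2 -0.83, SE 0.20, edgeR adjusted p = 0.00249). Of 8 epithelial markers, 7 were higher in the knockout, among them Cdx2, a transcription factor of intestinal identity (log2 0.88, edgeR adjusted p = 1.52e-05), and Vil1, the microvillus protein villin (0.90, edgeR adjusted p = 0.000165). Their summed level ranged from 9671 to 15440 TPM in knockout vehicle and from 9270 to 10950 TPM in wild type. Of 7 distal colon markers tested, 3 were higher and 3 lower, with Hoxb13 at -0.68 (edgeR adjusted p = 0.00202). The part of epithelial cells in the Il18 values was not tested.

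Il33 did not pass in either direction. It ranged from 1.73 to 10.2 CPM in knockout vehicle and from 3.01 to 5.30 CPM in wild type, with a log2 fold change of -0.10 (95% interval -0.72 to 0.53, edgeR adjusted p = 0.820). The knockout libraries were spread to both sides of wild type, with 6 below all of it and 2 above. Those 2 were libraries 2 and 3, and with both left out, a choice made after the values were seen, Il33 was lower (-0.62, edgeR adjusted p = 0.017) and 9 of the 10 members passed. Over this and the other alternative settings, 7260 to 8624 of all genes passed. Fibroblasts are among the cells that store IL-33, and 6 of 8 fibroblast markers were lower in the knockout. Their summed level ranged from 210.1 to 623.3 TPM in knockout vehicle and from 429.2 to 791.5 TPM in wild type, and their part in the Il33 values was not tested.

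The antagonists and decoys rose by very different amounts. Il18bp rose 6.62-fold (log2 2.73, SE 0.31, edgeR adjusted p = 6.06e-06). It ranged from 4.74 to 53.6 CPM with a median of 40.4 in knockout vehicle and from 4.31 to 6.39 CPM with a median of 5.72 in wild type. Library 3, at 4.74 CPM, lay inside the wild-type range, and the next lowest knockout library had 28.8 CPM. Il1r2 rose 6.71-fold (log2 2.75, SE 0.48, edgeR adjusted p = 0.000238). It had a median of 1.59 CPM in knockout vehicle, with a range of 0.303 to 6.44 CPM, and of 0.264 CPM in wild type, with a range of 0.108 to 0.479 CPM. Il1rn rose only 1.53-fold (log2 0.61, SE 0.19, edgeR adjusted p = 0.0144). It ranged from 56.7 to 173.1 CPM with a median of 74.4 in knockout vehicle and from 48.4 to 72.6 CPM with a median of 59.5 in wild type, and 5 of the 10 knockout libraries lay above all of wild type. In 1 fit of all 6 groups the Il1rn difference was 0.62 (edgeR adjusted p = 0.0628).

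Among the other receptors, Il1rl1 rose 11.7-fold (log2 3.55, SE 0.57, edgeR adjusted p = 0.000119). It ranged from 1.77 to 45.6 CPM with a median of 12.5 in knockout vehicle and from 0.706 to 1.73 CPM with a median of 1.11 in wild type, with no overlap. Il1rl1 has more than 1 RefSeq start, and counts per gene do not tell its transcript forms apart. Il18r1 rose 2.65-fold (log2 1.41, SE 0.22, edgeR adjusted p = 0.000101), at 2.64 to 5.73 CPM in knockout vehicle and 0.706 to 2.72 CPM in wild type. Of the knockout libraries, 9 of 10 lay above all of wild type for Il18r1. Il1r1, the receptor through which IL-1 signals, did not pass. It ranged from 14.4 to 25.3 CPM in knockout vehicle and from 17.0 to 26.9 CPM in wild type (log2 -0.10, 95% interval -0.31 to 0.10, edgeR adjusted p = 0.430).

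Markers of several immune cells rose in the same libraries. All 4 neutrophil markers tested of 11 listed were higher in the knockout. Of these, S100a8 and S100a9 averaged 0.131 and 0.0816 CPM in wild type. They passed the filter on low counts mainly through the knockout group and could hardly have been called lower. Summed neutrophil transcripts ranged from 259.5 to 5275 TPM in knockout vehicle and from 194.9 to 298.8 TPM in wild type. Ly6g weighed heavily in the wild-type sum, at 105.2 CPM on average, where S100a8 and S100a9 were scarce. Whether the wild-type sum reflects neutrophils was not tested. The highest knockout sum was that of library 2, and the lowest that of library 3, the same libraries that were highest and lowest for Il1a, Il1b and Il1r2. Of the neutrophil markers, Mmp8 was at 0 in 24, Ngp in 31 and Fpr1 in 24 of the 45 libraries. Monocyte and macrophage markers were higher for 10 of 12 genes (621.1 to 1854 TPM summed in knockout vehicle, 417.6 to 646.0 TPM in wild type), and T and NK cell markers for 9 of 9 tested (24.6 to 67.6 TPM in knockout vehicle, 6.31 to 24.04 TPM in wild type). Of 5 mast cell markers tested, 4 were higher, and mast cells carry ST2 (8.68 to 69.4 TPM summed in knockout vehicle, 3.52 to 6.88 TPM in wild type). Of these 4, Mcpt2, Cpa3 and Hdc averaged 0.256, 0.162 and 0.332 CPM in wild type. They too passed the filter mainly through the knockout group. All 8 smooth muscle markers were lower (247.0 to 6399 TPM in knockout vehicle, 3844 to 8865 TPM in wild type). The part of these cell types in the family's values was not tested.

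**Figure D2:**
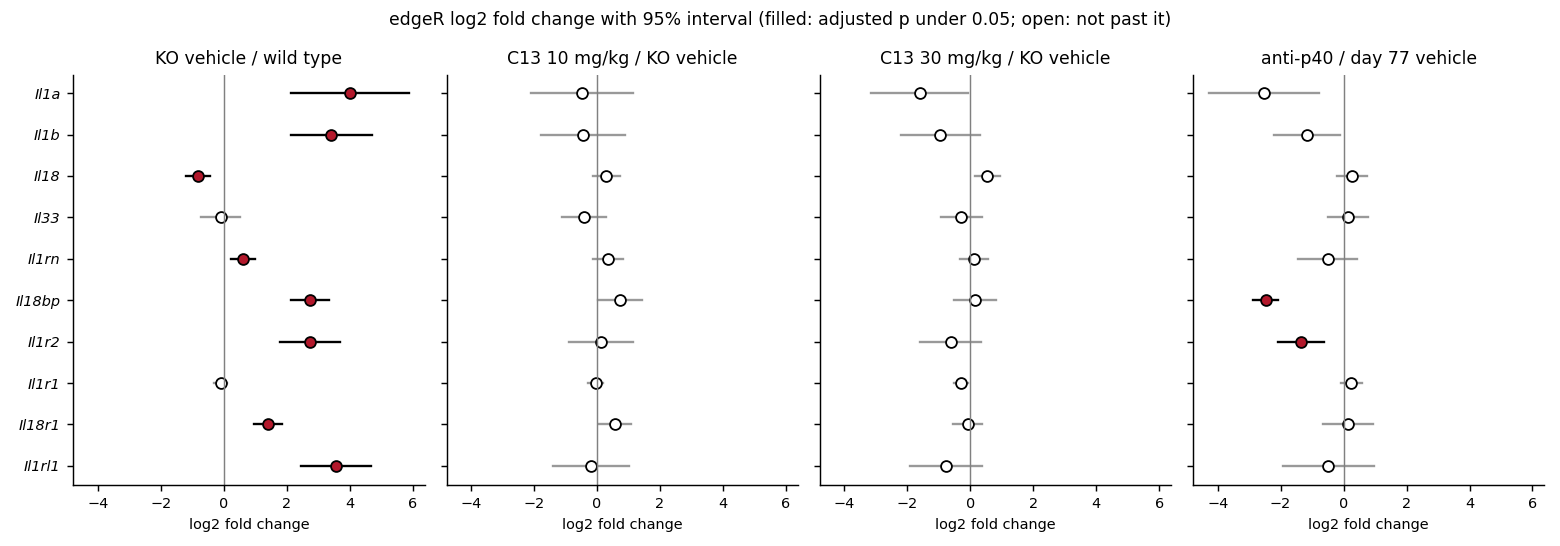
Points are edgeR log2 fold changes for each member, taken as the group before the slash in a panel's title over the group after it, lines are 95% intervals, and filled points passed an adjusted p of 0.05. In knockout vehicle against wild type 8 members passed, in both compound 13 panels none did, and with anti-p40 Il18bp and Il1r2 did.

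The balance between agonist and antagonist was read within each library as a ratio of TPM, which does not depend on library scaling. The ratio of Il1rn to the sum of Il1a and Il1b averaged 4.39 in knockout vehicle and 16.65 in wild type (geometric means), and the 10 knockout libraries were all under the wild-type range (exact permutation test, two-sided, p = 4.57e-05, adjusted p = 0.000914 over 20 ratio tests). The ratio of the binding protein Il18bp to Il18 was 0.290 in knockout vehicle and 0.0222 in wild type, higher in 9 of 10 knockout libraries than in any wild-type library (exact permutation test, adjusted p = 0.00114). The decoy Il1r2 relative to Il1r1 was 0.340 in knockout vehicle and 0.0765 in wild type (exact permutation test, adjusted p = 0.00168, 9 of 10 above all of wild type). Il1rl1 relative to Il33 was 2.35 in knockout vehicle and 0.240 in wild type (exact permutation test, adjusted p = 0.00251, 9 of 10 above). The IL-1 antagonist was thus scarcer relative to its ligands in the knockout, while the IL-18 binding protein was more abundant relative to its ligand. The decoy Il1r2 was more abundant relative to the receptor Il1r1, and its ratio to the ligands it binds was not computed. Median TPM in knockout vehicle and wild type was 1.595 and 0.43 for Il1r2, and 10.91 and 2.555 for Il1b. Il18 relative to Il33 was 64.3 in knockout vehicle and 100.3 in wild type and did not pass (exact permutation test, adjusted p = 0.182).

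**Figure D3:**
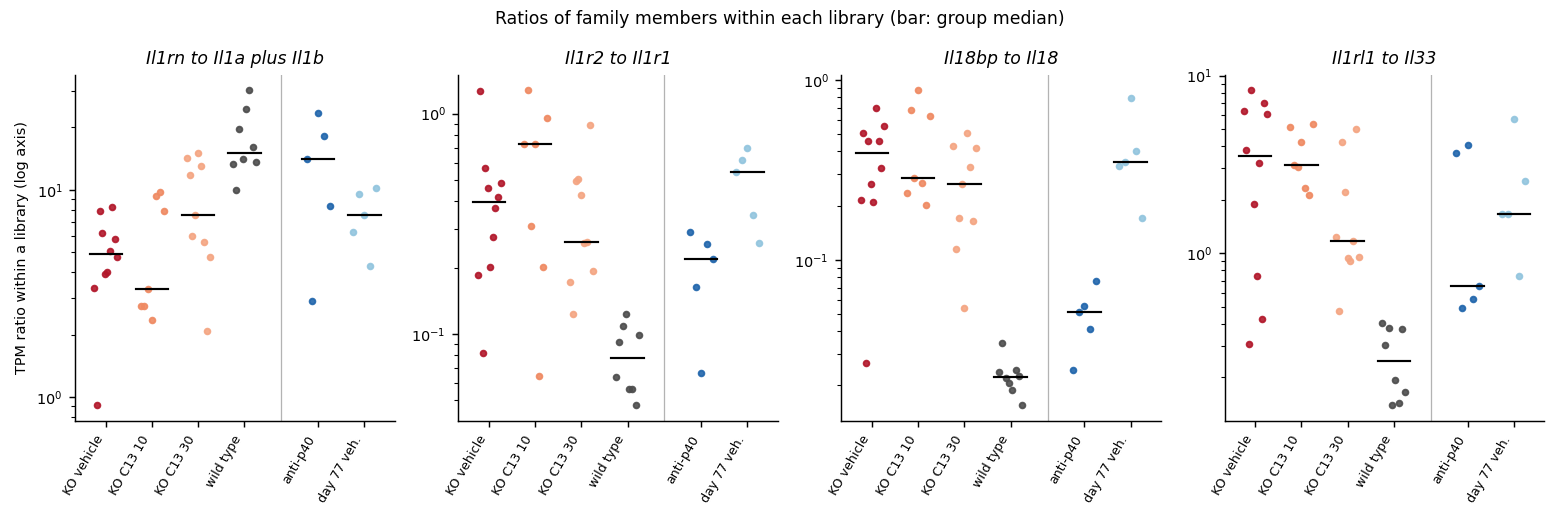
Each panel plots a ratio of TPM of 2 members, or of Il1rn to the sum of Il1a and Il1b, in every library on a log axis, with group medians as bars. All 10 knockout vehicle libraries lie below wild type for Il1rn to Il1a plus Il1b, and all 5 anti-p40 libraries lie below all 5 day 77 vehicle libraries for Il18bp to Il18.

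The order of the members by median TPM also differed. In knockout vehicle it was Il18 (141.6 TPM), Il1rn (52.4), Il18bp (44.0), Il1b (10.9), Il1rl1 (5.6), Il1r1 (5.50), Il1r2 (1.60), Il33 (1.43), Il18r1 (1.40) and Il1a (0.85). In wild type it was Il18 (269.6 TPM), Il1rn (44.2), Il1r1 (6.71), Il18bp (5.47), Il1b (2.56), Il33 (2.32), Il1rl1 (0.60), Il18r1 (0.575), Il1r2 (0.43) and Il1a (0.28). In knockout vehicle, every pair of neighbours in this order overlapped in range. In wild type, neighbours did not overlap at 4 steps, from Il18 (237.2 to 301.3 TPM) to Il1rn (38.7 to 51.9 TPM), from Il1rn to Il1r1 (5.05 to 9.12 TPM), from Il18bp (4.6 to 8.8 TPM) to Il1b (1.02 to 3.54 TPM) and from Il33 (2.10 to 3.37 TPM) to Il1rl1 (0.30 to 0.82 TPM).

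**Figure D4:**
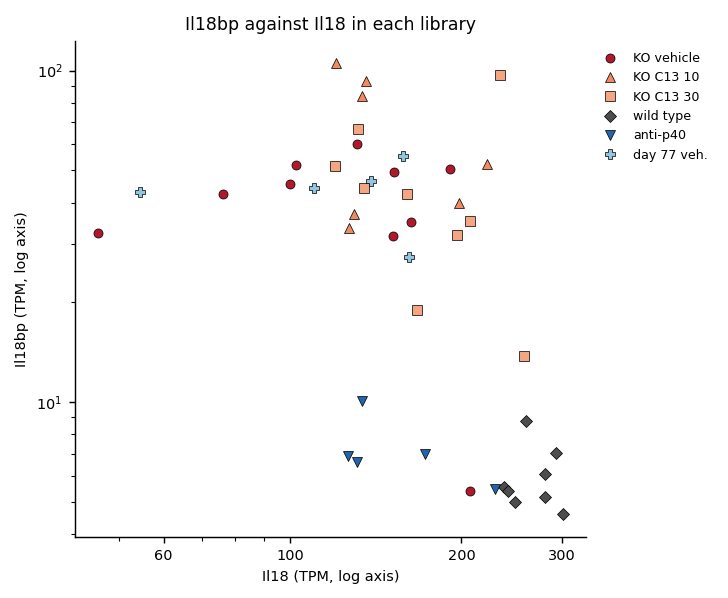
Il18bp is plotted against Il18, both in TPM on log axes, with 1 symbol per library. Wild-type libraries lie at high Il18 and low Il18bp, anti-p40 libraries at low Il18bp (5.49 to 10.1 TPM), and knockout vehicle library 3 has a wild-type level of Il18bp (5.39 TPM) while its Il18 (206.75 TPM) is below the wild-type range.

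Other genes of the pathway, taken from fixed lists, were read in the same fit. Of the remaining family receptors and regulators, 4 of 6 were tested: Il18rap, the second chain of the IL-18 receptor, rose (log2 2.63, edgeR adjusted p = 0.000146), while Il1rap, the accessory chain of the IL-1 and IL-33 receptors (-0.43, edgeR adjusted p = 0.00184), and Il1rl2, the IL-36 receptor (-0.62, edgeR adjusted p = 0.0256), fell. None of the 5 other family ligands passed the filter; Il36g reached 260 counts in 1 knockout vehicle library and 0 in every wild-type library. Of 13 adaptors and kinases below the receptor, 5 rose and 0 fell, by small amounts, such as Traf6 (0.50, edgeR adjusted p = 0.00227), Irak4 (0.38, edgeR adjusted p = 0.00343) and Myd88 (0.31, edgeR adjusted p = 0.0113). Of 11 NF-kB subunits and inhibitors, 8 rose and 0 fell, led by Nfkbiz, an inducible nuclear co-regulator of NF-kB (2.27, edgeR adjusted p = 9.09e-06).

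Genes that process the cytokines rose broadly. Of 13 inflammasome and processing genes tested, 11 rose and 0 fell, among them Casp4, the intracellular sensor of lipopolysaccharide (log2 1.74, edgeR adjusted p = 3.53e-06), the adaptor Pycard (0.94, edgeR adjusted p = 2.04e-05) and the pore protein gene Gsdmd (0.66, edgeR adjusted p = 0.000835). Of 14 tested genes that IL-1 is known to induce, of 21 listed, 13 rose, including Nos2, inducible nitric oxide synthase (6.87, edgeR adjusted p = 4.34e-06), and Saa3, an acute-phase protein (5.03, edgeR adjusted p = 5.75e-05). All 5 tested IL-18 targets of 7 listed rose, among them Gzmb, a cytotoxic granule protease (6.62, edgeR adjusted p = 8.3e-06), and Cxcl9, a T cell chemokine (6.27, edgeR adjusted p = 9.09e-06). In wild type, Gzmb, Saa3, Il12rb1 and Cxcl10 averaged 0.0791, 0.208, 0.299 and 0.372 CPM, and Cxcl9 0.498 CPM. Gzmb, Saa3, Il12rb1 and Cxcl10 passed the filter on low counts mainly through the knockout group and could hardly have been called lower. Genes listed as IL-33 targets or as genes of group 2 innate lymphoid cells were mixed. Of 7 tested, 3 rose and 2 fell. Areg, an epidermal growth factor receptor ligand, was higher (1.80, edgeR adjusted p = 5.15e-05) and the eosinophil chemokine Ccl11 lower (-1.02, edgeR adjusted p = 0.00417). Many of these genes also respond to other cytokines.

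**Figure D5:**
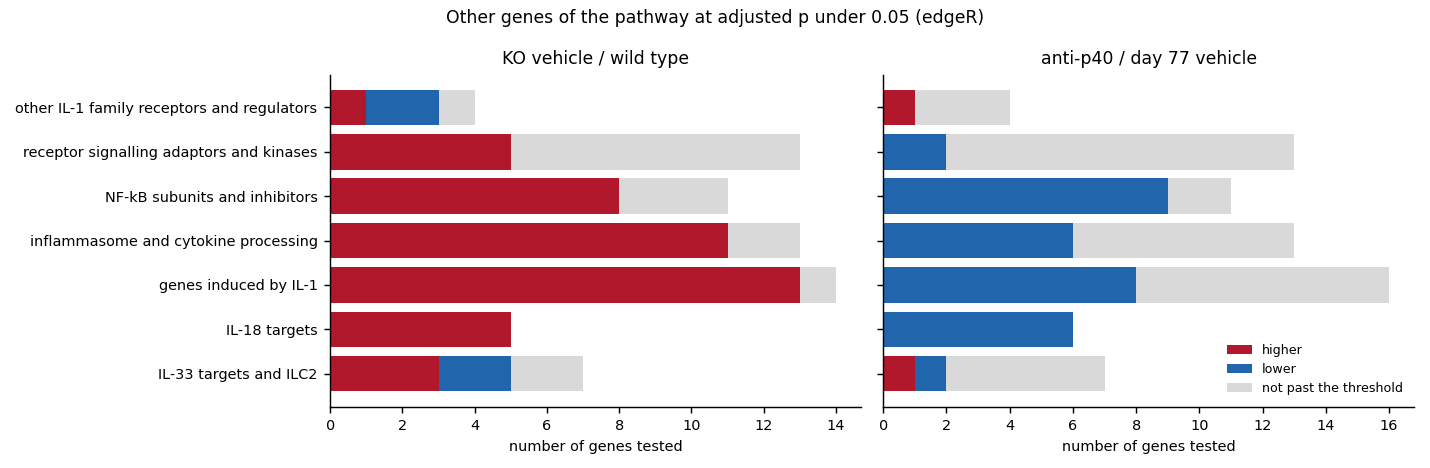
Bars count the genes of each list that passed as higher, passed as lower or did not pass an adjusted p of 0.05 in edgeR, for knockout vehicle over wild type and for anti-p40 over day 77 vehicle. All 5 IL-18 targets tested were higher in the first comparison and all 6 tested were lower in the second. The cohorts share no libraries. Some of these genes, such as Gzmb in the first comparison and Ifng in the second, passed the filter mainly through the higher group. They could hardly have gone the other way.

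Compound 13 left no member past the threshold at either dose. At 10 mg/kg against knockout vehicle, edgeR called 0 of the 10 members, DESeq2 0 and limma voom 0, with 1 member at an unadjusted p under 0.05. Of all 16948 genes tested, 2 passed (0.0118%), against 81 in DESeq2. With 30 mg/kg edgeR also called 0 members, DESeq2 0 and limma voom 0, with 2 members at an unadjusted p under 0.05, and 0 of all genes passed (0%), with 1004 at an unadjusted p under 0.05 and 1 in DESeq2. The member with the smallest p at 10 mg/kg was Il18r1, at 3.90 to 9.15 CPM with 10 mg/kg and 2.64 to 5.73 CPM with vehicle (log2 0.57, 95% interval 0.07 to 1.06, edgeR p = 0.0332, adjusted p = 0.411). Of the 7 libraries at 10 mg/kg, 5 lay above every vehicle library.

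The smallest p-values at 30 mg/kg were those of Il1r1 and Il18. Il1r1 ranged from 13.4 to 20.8 CPM with 30 mg/kg and from 14.4 to 25.3 CPM with vehicle (log2 -0.31, 95% interval -0.53 to -0.08, edgeR p = 0.0129, adjusted p = 0.835), and 8 of 9 treated libraries lay below the vehicle mean. Il18 ranged from 59.1 to 132.7 CPM with 30 mg/kg and from 22.8 to 89.2 CPM with vehicle (log2 0.54, 95% interval 0.14 to 0.95, edgeR p = 0.0146, adjusted p = 0.835), and 5 of 9 treated libraries lay above every vehicle library. Neither passed over all genes. The 95% intervals were wide for the IL-1 ligands: -3.16 to -0.06 for Il1a and -2.21 to 0.30 for Il1b at 30 mg/kg, and -2.10 to 1.13 for Il1a and -1.77 to 0.90 for Il1b at 10 mg/kg. The intervals are a normal approximation, narrower than the test implies. That of Il1a at 30 mg/kg held only negative values although its edgeR p was 0.0522 (adjusted p = 0.842). The 30 mg/kg differences rested on 1 vehicle library: without library 2, they were 0.18 for Il1a and 0.16 for Il1b.

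The doses were also compared with each other. For 30 mg/kg against 10 mg/kg, edgeR called 0 of 10 members, DESeq2 0 and limma voom 0, with 2 members at an unadjusted p under 0.05, and 0 of all genes (0%), with 2451 at an unadjusted p under 0.05 and 316 in DESeq2. Il18r1 had 1.62 to 9.12 CPM at 30 mg/kg and 3.90 to 9.15 CPM at 10 mg/kg (log2 -0.66, 95% interval -1.16 to -0.15, edgeR adjusted p = 0.245), and 6 of the 9 libraries at 30 mg/kg lay below all those at 10 mg/kg. Il18bp had 14.2 to 75.8 CPM at 30 mg/kg and 27.4 to 110.0 CPM at 10 mg/kg (log2 -0.57, 95% interval -1.30 to 0.16, edgeR adjusted p = 0.492). A p that misses the threshold does not show that the doses act alike. The 2 genes that passed at 10 mg/kg against vehicle were in none of the pathway lists. The median log2 fold change of the genes induced by IL-1 was 0.05 at 10 mg/kg and -0.69 at 30 mg/kg, and that of the IL-18 targets 0.31 at 10 mg/kg and -0.67 at 30 mg/kg. Both dose groups were set against the same vehicle libraries.

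Both dose groups were also set against wild type. At 10 mg/kg 8 members passed, 7 higher and 1 lower, where 47.5% of all genes did (24% higher, 23.5% lower), and at 30 mg/kg 8 members passed, 7 higher and 1 lower, where 43.9% did (22.6% higher, 21.3% lower). The lower member differed. At 10 mg/kg it was Il18 (log2 -0.53, edgeR adjusted p = 0.00588). At 30 mg/kg it was Il1r1 (-0.40, edgeR adjusted p = 0.00284), while Il18 did not pass (-0.28, edgeR adjusted p = 0.116), although it did without library 5 of that group (-0.37, edgeR adjusted p = 0.0201) and by limma on log2(TPM + 1) (-0.62, adjusted p = 0.000914). Il33 did not pass in edgeR with all libraries at either dose (-0.52 at 10 mg/kg, edgeR adjusted p = 0.125, and -0.39 at 30 mg/kg, edgeR adjusted p = 0.186). It passed as lower at 10 mg/kg without library 3 of that group (-0.68, edgeR adjusted p = 0.0455) and by limma on log2(TPM + 1) (-0.58, adjusted p = 0.0115). It also passed as lower at 30 mg/kg without library 8 (-0.61, edgeR adjusted p = 0.0151) and by limma on log2(TPM + 1) (-0.51, adjusted p = 0.0069). These comparisons share the wild-type libraries with that of knockout vehicle. In both, Il1a and Il1r2 again passed the filter mainly through the knockout group and could hardly have been called lower. Library 8 at 30 mg/kg was the highest for 7 of the 10 members, with 44.7 CPM of Il1b, where the next library had 11.4 CPM. Without it the log2 fold change over wild type was 1.62 for Il1b, against 2.46 with it, 1.76 for Il1a, against 2.39 with it, and 1.88 for Il1rl1, against 2.80 with it.

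With anti-p40, the binding protein Il18bp and the decoy receptor Il1r2 fell. Of the 10 members, 2 passed as lower and 0 as higher, while 16.7% of 16470 genes passed, 8.35% as higher and 8.32% as lower. The median log2 fold change was -0.50 over the members and 0.01 over all genes. Il18bp fell to 5.12, 6.38, 7.30, 6.84 and 9.98 CPM with anti-p40, against 39.7, 48.3, 47.6, 37.2 and 26.9 CPM with day 77 vehicle. Every anti-p40 library lay below every vehicle library, a separation that 14.5% of all genes tested showed in either direction. The difference was 5.57-fold (log2 -2.48, SE 0.20, edgeR adjusted p = 0.000106), and the authors' deposited table gave -2.49. The ratio of Il18bp to Il18 fell to 0.0464 with anti-p40, against 0.363 with vehicle, in 5 of 5 libraries (exact permutation test, p = 0.00794, the smallest that 5 against 5 can give, adjusted p = 0.0318 over 20 ratio tests).

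Il1r2 had 1.61, 0.968, 0.4929, 0.662 and 1.45 CPM with anti-p40, against 2.43, 2.48, 4.61, 2.35 and 1.56 CPM with day 77 vehicle. The ranges met at 1 anti-p40 library, and 4 of 5 lay below all vehicle libraries. The fall was 1.36 on the log2 scale (-1.36, SE 0.38, edgeR adjusted p = 0.0317). Leaving out day 77 vehicle library 1, 2 or 3, or anti-p40 library 2, 3 or 4, kept the log2 fold change between -1.39 and -1.09 but moved the edgeR adjusted p to 0.0518 to 0.0723. It did not pass in 1 fit of all 6 groups (adjusted p = 0.158) or by limma on log2(TPM + 1) (-0.68, adjusted p = 0.0649). Of 10 alternative settings, 3 lost the call. In the authors' deposited table Il1r2 passed (-1.38, adjusted p = 0.00376). Il1r2 relative to Il1r1 was 0.178 with anti-p40 and 0.462 with vehicle (exact permutation test, adjusted p = 0.0529).

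The IL-1 ligands were at lower values with anti-p40 without passing. Il1a had 0.645, 0.598, 0.216, 0.184 and 0.822 CPM with anti-p40, against 1.14, 0.280, 10.6, 1.77 and 0.738 CPM with vehicle (log2 -2.53, SE 0.89, edgeR adjusted p = 0.0728). DESeq2 called it (-2.56, adjusted p = 0.00941), and so did the authors' deposited table (-2.57, adjusted p = 0.00932). Without vehicle library 3 the log2 fold change of Il1a was -1.001 (edgeR adjusted p = 0.231), and without vehicle library 2 it passed (-2.83, edgeR adjusted p = 0.0466). Il1b had 3.47, 10.8, 3.54, 1.69 and 3.84 CPM with anti-p40, against 6.78, 4.96, 23.0, 12.9 and 5.22 CPM with vehicle (log2 -1.16, SE 0.54, edgeR adjusted p = 0.160), and 4 of 5 anti-p40 libraries lay below all of vehicle. Without vehicle library 3 it was -0.68 (edgeR adjusted p = 0.385), and without anti-p40 library 2 it was -1.75 (edgeR adjusted p = 0.0509). Vehicle library 3 held the highest Il1a, Il1b, Il1rn, Il1r2, Il18r1 and Il1rl1 of its group.

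Most other members overlapped between the 2 groups. Il18 ranged from 56.6 to 98.6 CPM with anti-p40 and from 30.3 to 79.8 CPM with vehicle (log2 0.25, 95% interval -0.22 to 0.73, edgeR adjusted p = 0.511). Il1rn had a log2 fold change of -0.51 (95% interval -1.44 to 0.42, edgeR adjusted p = 0.497) and Il1rl1 of -0.49 (-1.92 to 0.95, edgeR adjusted p = 0.691). Il1r1 (0.25, -0.08 to 0.58, edgeR adjusted p = 0.339), Il18r1 (0.14, -0.67 to 0.94, edgeR adjusted p = 0.851) and Il33 (0.14, -0.49 to 0.78, edgeR adjusted p = 0.800) were at slightly higher values.

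Among the pathway lists, the IL-18 targets, the genes induced by IL-1, the NF-kB genes and the processing genes held more lower than higher genes. All 6 tested IL-18 targets of 7 listed were lower, among them Gzmb (log2 -3.66, edgeR adjusted p = 0.00475) and Il12rb1, a chain of the receptors for IL-12 and IL-23 (-1.41, edgeR adjusted p = 0.00772). Ifng, another of them, averaged 0.108 CPM with anti-p40 and 1.15 CPM with vehicle. It passed the filter on low counts mainly through the vehicle group and could hardly have been called higher. Of 16 tested genes induced by IL-1, 8 were lower and 0 higher, with Nos2 at 14.4 CPM with anti-p40 and 542.3 CPM with vehicle (-5.23, edgeR adjusted p = 0.00124). Among the 8, Cxcl2 and Cxcl5 averaged 0.098 and 0.437 CPM with anti-p40, against 2.875 and 14.5 CPM with vehicle. Like Ifng, they passed the filter mainly through the vehicle group and could hardly have been called higher. Of 11 NF-kB subunits and inhibitors 9 were lower, including Nfkbia, an inhibitor that NF-kB itself induces (-0.99, edgeR adjusted p = 0.00386), and of 13 inflammasome and processing genes 6 were lower, including Gsdmd (-0.99, edgeR adjusted p = 0.00228). Of 13 adaptors and kinases, 2 were lower, Irak4 (-0.41, edgeR adjusted p = 0.0309) and Myd88 (-0.43, edgeR adjusted p = 0.0483). Il1rap was higher (0.51, edgeR adjusted p = 0.0124), the only one of 4 other family receptors and regulators to pass. Of 7 tested genes listed as IL-33 targets or as genes of group 2 innate lymphoid cells, 1 was higher and 1 lower.

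Immune markers fell in the same comparison. Monocyte and macrophage markers were lower for 9 of 12 genes (579.6 to 770.7 TPM summed with anti-p40, 1056 to 1776 TPM with vehicle), T and NK cell markers for 7 of 9 tested (7.32 to 22.9 TPM with anti-p40, 34.99 to 66.1 TPM with vehicle), and neutrophil markers for 3 of 5 tested (220.0 to 949.2 TPM with anti-p40, 529.8 to 4391 TPM with vehicle). Ly6g weighed heavily in the neutrophil sum with anti-p40, at 200.7 CPM on average, where S100a8 averaged 0.340 CPM and S100a9 0.3185 CPM. S100a8 and S100a9 passed the filter mainly through the vehicle group and could hardly have been called higher. Ly6g did not pass (log2 -0.84, edgeR adjusted p = 0.204). Smooth muscle markers were higher for 7 of 8 (3047 to 7632 TPM with anti-p40, 950.0 to 2878 TPM with vehicle). The median log2 fold change of the 8 epithelial markers was -0.18 and that of the 8 fibroblast markers 0.05. The part of these cells in the values of Il18bp and Il1r2 was not tested.

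The effects of anti-p40 and of compound 13 were compared directly, each against the vehicle of its own cohort in 1 fit. Treatment, cohort and day of sampling cannot be told apart in this comparison. Among the members, 1 passed, Il18bp. Its log2 anti-p40 effect minus that of 30 mg/kg was -2.64 ( SE 0.49, edgeR adjusted p = 0.00213), where 1.65% of 18021 genes passed, and its anti-p40 effect minus that of 10 mg/kg was -3.21 (SE 0.50, edgeR adjusted p = 0.000233), where 9.83% passed. For Il1r2, the anti-p40 effect minus that of 30 mg/kg was -0.72 (95% interval -2.16 to 0.71, edgeR adjusted p = 0.678).

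Across the 26 knockout libraries of the first cohort, the members differed in how they went together. These are Spearman correlations over libraries of 3 treatment groups that share a cohort and include the libraries that stood apart, and they are given as a description. Il1b went with Il1rl1 (rho 0.896), Il1a (0.793) and Il1r2 (0.783), while Il1r1 (0.105), Il33 (0.141) and Il18 (-0.104) did not follow it. In the 10 day 77 libraries the rho of Il1b was 0.758 with Il1a, 0.588 with Il1r2, 0.0667 with Il1rl1, 0.139 with Il1r1, 0.273 with Il33 and -0.612 with Il18. The rho of Il18 with Il18bp was -0.0674 in the first cohort and -0.261 over day 77. That of Il1b with the summed neutrophil markers was 0.762 in the first cohort and 0.455 over day 77, and with the smooth muscle markers -0.699 in the first cohort and -0.539 over day 77. Ly6g weighed heavily in the neutrophil sum, with 365.5 CPM on average in knockout vehicle against 64.8 CPM of S100a8.

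Of 16948 genes, the one most like Il1b in the first cohort was Cxcl2, a neutrophil chemokine (rho 0.935, and 0.818 over day 77), followed by Tnfrsf1b, a tumour necrosis factor receptor (0.911), and Tmem173 (0.91). For Il18bp they were Psmb9, an immunoproteasome subunit that interferons induce (0.85, and 0.867 over day 77), Upp1 (0.845, and 0.964 over day 77) and Uba7, the activating enzyme for ISG15 (0.831, and 0.806 over day 77). For Il18 they were Npas2 (0.841), Hgsnat (0.754) and Gnpda1 (0.733), of which Npas2 went the other way over day 77 (-0.333). For Il1r1 they were Pop1 (0.808), Polg (0.792) and Tnip2 (0.762), and for Il33 Adgrg3 (0.722), Igfbp5 (0.698) and Sod3 (0.691). The rho with Il1r1 was -0.0424 to 0.248 over day 77, and with Il33 0.115 to 0.503.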

How the data were processed

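Distal colon RNA was extracted with a column kit and sequenced after poly A enrichment, per the labels' protocols. The deposited tables hold the authors' estimated counts, of which 17.1% (first cohort) and 20.4% (day 77) of nonzero values are not whole, and the authors' TPM. The authors' deposited tables of log2 fold changes, p-values and adjusted p-values were used only where named. The submitters' processing notes name RSEM 1.3.3, STAR 2.7.8a, cutadapt 3.7, build mm10 and DESeq2 1.30.1. Strandedness and annotation are not given in the sources used here. Of 50600 identifiers, 50376 matched GENCODE M21.

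Estimated counts were rounded and tested with edgeR 4.0.16 (TMM scaling, filterByExpr, robust quasi-likelihood, R 4.3.3), with the 3 first-cohort knockout groups in 1 fit, all 6 groups in 1 fit for differences between treatment effects, and the other comparisons on their own 2 groups, with Benjamini-Hochberg adjustment over all genes tested and a threshold of 0.05. CPM here are counts scaled to TMM library sizes. Intervals are approximate 95% intervals, the log2 fold change plus and minus 1.96 SE, with the SE taken from the F statistic of the test. They leave out the test's degrees of freedom and are narrower than the test implies. Ratios of TPM used a pseudocount of 0.1 and exact two-sided permutation tests (SciPy 1.17.1), adjusted over 20 tests. Alternatives were DESeq2 1.42.0, limma 3.58.1 (voom, and log2 TPM), other scalings, filters and fits, and leaving out each library. Genes outside the family were named from lists by smallest adjusted p among those that passed, and the nearest genes by Spearman's rho. The members, lists and tests were chosen with earlier results of these data known. Total counts of 22682471 to 36279743 per library set the counting precision. The library with conflicting dose labels was left out of every comparison.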

Additional observations from a re-analysis of the deposited data

Results flagged for a closer look

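Single libraries stood far from the rest of their group, by Dixon's criterion, in 16 of 60 checks of a member in a group. Chance gives about 1 in 20 such groups, and the members are not independent, since the same libraries recur. In knockout vehicle, library 2 was the highest for Il1a (39.73 CPM, next 4.75), Il1b (110.6 CPM, next 11.99), Il1r2 (6.437 CPM, next 2.301) and Il1rl1 (45.57 CPM, next 20.3), and library 3 was the lowest for Il18bp (4.741 CPM, next 28.83). At 30 mg/kg of compound 13, library 8 was the highest for Il1a (6.793 CPM, next 2.956), Il1b (44.66 CPM, next 11.38), Il1rl1 (40.43 CPM, next 10.1) and Il33 (6.712 CPM, next 3.737), and library 1 for Il18r1 (9.118 CPM, next 4.949). At 10 mg/kg, library 7 was the highest for Il1rn (198.4 CPM, next 127.4). With anti-p40, library 2 was the highest for Il1b (10.76 CPM, next 3.837). In day 77 vehicle, library 3 was the highest for Il1a (10.55 CPM, next 1.77), Il1rn (283.6 CPM, next 88.27) and Il1rl1 (51.44 CPM, next 8.042), and library 2 the lowest for Il18r1 (2.361 CPM, next 4.814).

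Summed neutrophil markers were highest of their group in 3 of these libraries: 5275 TPM in knockout vehicle library 2, 2718 TPM in library 8 at 30 mg/kg and 4391 TPM in day 77 vehicle library 3. Their part in the family's values was not tested.

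The effect of anti-p40 on Il18bp differed from that of compound 13, by -2.635 on the log2 scale against 30 mg/kg and by -3.215 against 10 mg/kg, as tested in 1 fit with edgeR (adjusted p = 0.00213 and 0.000233).

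The knockout library with conflicting dose labels was in no comparison. It lay above the highest wild-type library for Il1a (1.033 CPM, wild type up to 0.559), Il1b (3.771 CPM, up to 2.599), Il1rn (76.98 CPM, up to 72.58), Il1r2 (0.5865 CPM, up to 0.4791), Il1rl1 (5.363 CPM, up to 1.725), Il18bp (46.34 CPM, up to 6.388) and Il18r1 (4.469 CPM, up to 2.717).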

How the results depend on the processing

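In knockout vehicle against wild type, 8 members passed whichever library was left out, and 6 to 9 under the other settings, where a filter of 1 CPM tested 8 members. Under those settings 6 to 9 members passed for the lower dose against wild type, and 6 to 10 for the higher dose. Of all genes, 7488 to 9048 passed for the lower dose and 6428 to 8525 for the higher dose. For knockout vehicle they were 7260 to 8624, and 7199 to 9102 with 1 library left out. No paired analysis was possible because the replicate numbers were given in accession order and the labels pair no libraries. Leaving out knockout vehicle libraries 2 and 3 together was chosen after seeing the data. The cause of the changes below was not tested.

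Over all genes, calls at 10 mg/kg against vehicle were 81 by DESeq2, 22 and 24 by limma on log2 TPM with pseudocounts 1 and 0.1, 129 in 1 fit of 6 groups and 1 without libraries 2 and 3. At 30 mg/kg against vehicle DESeq2 called 1. At 30 against 10 mg/kg the calls were 316 by DESeq2, 1 and 1 by limma and 392 in 1 fit. With anti-p40, 1 fit called 1644 genes, and limma with either pseudocount and 1 fit each called 1 member. DESeq2 called 650 genes for anti-p40 minus 30 mg/kg. With 1 library left out, the calls ranged from 1 to 18 at 10 mg/kg, 0 to 75 for 30 against 10 mg/kg, 1637 to 2522 with anti-p40 (members 1 to 2), 167 to 577 for anti-p40 minus 30 mg/kg and 898 to 2548 for anti-p40 minus 10 mg/kg (members 1 to 2).

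Signs turned for members that had not passed. At 10 mg/kg, Il1a was 0.85 by voom, 0.31 and 0.67 by limma with pseudocounts 1 and 0.1, and 1.15 without libraries 2 and 3. Il1b was 0.081 by voom and 0.58 without them, Il1r1 0.014 and Il33 0.095 without them. Il1rl1 was 0.29 by voom, 0.044 and 0.14 by limma and 0.090 without them. At 30 mg/kg without them, Il1a was 0.029, Il1b 0.053 and Il33 0.22, and Il1rn was -0.053 by limma with either pseudocount. Il18r1 with anti-p40 was -0.047 by voom. Il18 for anti-p40 minus 10 mg/kg was 0.0055 with upper-quartile scaling and 0.12 by limma with either pseudocount. With a pseudocount of 1 TPM the log2 ratio of Il1r2 to Il1r1 was 0.0203 at 30 mg/kg and -0.9985 with anti-p40 (exact permutation test, adjusted p = 0.0454), and that of Il18 to Il33 was -0.82 in knockout vehicle (exact permutation test, adjusted p = 0.0321).

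With 1 library left out, log2 values at 10 mg/kg ranged from -0.85 to 1.303 for Il1a, -0.62 to 0.68 for Il1b, -0.13 to 0.026 for Il1r1, -0.16 to 0.55 for Il1r2 and -0.34 to 0.22 for Il1rl1. At 30 mg/kg they ranged from -2.24 to 0.18 for Il1a, -1.79 to 0.16 for Il1b, -0.036 to 0.26 for Il1rn, -0.34 to 0.014 for Il18r1 and -0.51 to 0.0041 for Il33. For 30 against 10 mg/kg Il33 ranged from -0.088 to 0.30. With anti-p40 they ranged from -2.83 to -1.001 for Il1a (edgeR adjusted p = 0.0466 to 0.231), -0.89 to 0.14 for Il1rn, -1.10 to 0.57 for Il1rl1, -0.37 to 0.35 for Il18r1 and -0.055 to 0.43 for Il33. For anti-p40 minus 30 mg/kg they ranged from -2.71 to 0.63 for Il1a, -1.33 to 0.63 for Il1b, -0.99 to 0.049 for Il1rn, -0.34 to 1.33 for Il1rl1 and -0.28 to 0.48 for Il18r1. For anti-p40 minus 10 mg/kg they ranged from -0.91 to 0.76 for Il1rl1 and -0.21 to 0.089 for Il18. The log2 ratio of Il1rn to Il1a plus Il1b ranged from -0.19 to 0.22 for the lower dose, and from 0.53 to 1.02 for the higher dose, where it passed without library 8 (exact permutation test, adjusted p = 0.0346). That of Il1r2 to Il1r1 ranged from -0.36 to 0.080 at 30 mg/kg. That of Il18 to Il33 ranged from 0.57 to 0.91 at 30 mg/kg, passing without vehicle library 9 (exact permutation test, adjusted p = 0.0456), and from -0.34 to 0.41 with anti-p40.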
